A study of Mus musculus with 22 samples.

Results

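The Obox pseudogenes are the annotated relics of the Obox homeobox genes of the mouse. They were taken as every gene whose GENCODE M21 symbol is Obox, 1 digit, -ps and a number, and 48 of the 55487 genes in the deposited expression tables met that rule. By number they were 39 Obox4-ps, 8 Obox3-ps and 1 Obox6-ps gene. The annotation classes 45 of them as unprocessed pseudogenes, Obox3-ps8 and Obox6-ps1 as processed pseudogenes, and Obox4-ps35 as a long intergenic non-coding RNA. On GRCm38, 46 of the 48 lay within 1.31 Mb of chromosome 7 (14517971 to 15825815), 30 on the plus strand and 16 on the minus strand. The remaining 2, both processed pseudogenes, lay on chromosome 17.

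Obox (oocyte-specific homeobox) genes code for DNA-binding homeodomain proteins made in the oocyte and early embryo, and they sit in a cluster that has grown by tandem duplication. An unprocessed pseudogene is a duplicated gene that has lost its coding capacity, and a processed pseudogene is a copy of a spliced RNA inserted back into the genome. DUX is a transcription factor with a pair of homeodomains that activates the programme of the 2-cell embryo, and embryonic stem cells that make it transcribe many multi-copy families normally silent in culture.

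Poly(A) RNA was sequenced from Dux-/- mouse embryonic stem cells (mESCs) grown in 2iLIF. All groups, controls included, lack the native Dux gene, carry an mCherry-tagged construct and received doxycycline at 0.25 ug/mL for 12 hours, after 24 hours of recovery from plating. The series has 11 groups of 2 replicates, of which 10 groups (20 libraries) were analysed here and C3delt14 was not. The labels say neither whether replicates were separate cultures nor whether a line is 1 clone, so p-values measure the spread between these libraries, which may be technical.

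The constructs are named as in the labels, which do not spell out their parts. FL denotes the whole DUX protein, while cells named mCherry carry only the tag. The first table of values, called the chimera table here, has 14 libraries: mCherry, FL, the constructs C3+14 and C1+14, and the chimeras named C1C3 with an a, b or c. The deletion table holds the same FL libraries with C12345delt14, deltC12345+14 and deltC12345delt14 (8 libraries), and the labels do not spell out "delt", read here as a deleted part. Values are normalised reads, that is, read counts divided by 1 size factor per library, and the tables were scaled separately. Every comparison with FL uses these FL libraries and every comparison with mCherry the same mCherry libraries, so such comparisons are not independent of each other.

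Sequence decides how these genes can be counted, so the copies that carry the results are shown before their values. The Obox4 pseudogenes include 2 tandem arrays on the plus strand of chromosome 7. Obox4-ps11 to Obox4-ps23 (13 copies, 15129168 to 15265656) follow each other every 10378 to 11369 bases, and Obox4-ps27 to Obox4-ps29 (3 copies, 15431662 to 15456033) every 11325 to 11336 bases within an intron of Obox1. The 15 copies with 3 exons were between 99.1% and 100% identical over their exons (median 99.6% over 105 pairs). A 60-base window of exon 1 separates them into 5 sequences. These are shown for 1 copy each from the GENCODE M21 transcripts (GRCm38, plus strand, 5′ to 3′), with capitals at the 4 positions that vary.
Obox4-ps12 (chr7:15139667-15139726, also the sequence of Obox4-ps13, -ps18 to -ps23, -ps27 and -ps28): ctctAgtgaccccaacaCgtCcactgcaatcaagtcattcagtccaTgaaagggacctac
Obox4-ps14 (chr7:15162365-15162424): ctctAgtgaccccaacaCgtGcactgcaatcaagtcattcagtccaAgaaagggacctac
Obox4-ps15 (chr7:15173446-15173505): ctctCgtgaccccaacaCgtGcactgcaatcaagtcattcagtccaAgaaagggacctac
Obox4-ps16 (chr7:15184787-15184846, also the sequence of Obox4-ps17): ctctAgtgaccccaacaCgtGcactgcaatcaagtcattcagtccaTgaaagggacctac
Obox4-ps29 (chr7:15454443-15454502): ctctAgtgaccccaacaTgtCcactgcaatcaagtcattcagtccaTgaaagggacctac

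The Obox3 pseudogenes are close copies of Obox3, a protein-coding member of the cluster. Obox3 and Obox3-ps1 to Obox3-ps6 were between 95.9% and 99.5% identical (median 97.5% over 21 pairs). In a 60-base window of exon 1 on the minus strand, 4 positions vary and give 6 sequences. They are shown because the coding gene and its copies differ by so few bases.
Obox3 (chr7:15627160-15627219): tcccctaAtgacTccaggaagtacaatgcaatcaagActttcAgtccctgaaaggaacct
Obox3-ps1 (chr7:14695498-14695557): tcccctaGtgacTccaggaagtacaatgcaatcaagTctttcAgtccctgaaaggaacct
Obox3-ps2 (chr7:14801649-14801708): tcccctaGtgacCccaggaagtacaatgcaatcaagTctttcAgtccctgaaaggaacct
Obox3-ps3 (chr7:14933060-14933119): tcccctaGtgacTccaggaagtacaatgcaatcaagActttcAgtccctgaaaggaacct
Obox3-ps4 (chr7:15057626-15057685): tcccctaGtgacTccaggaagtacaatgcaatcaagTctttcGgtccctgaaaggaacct
Obox3-ps5 (chr7:15295372-15295431, also the sequence of Obox3-ps6): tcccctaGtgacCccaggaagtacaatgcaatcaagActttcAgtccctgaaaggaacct

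The symbol Obox4-ps also covers sequences that are far apart. Genes were joined into a sequence group where any 50-base stretch (50-mer) of their transcripts is the same, directly or through another gene. Group 1 holds 26 Obox4 pseudogenes, all on the plus strand, at 95.4% to 100% identity to Obox4-ps28 over the aligned bases. Group 3 holds 7 others, all on the minus strand, at 68.9% to 78.8% identity to Obox4-ps28, and group 4 holds Obox4-ps34 and Obox4-ps39 at about 67.1%. These last 9 genes had 0 reads in all 20 libraries, whereas none of the 26 in group 1 did. The aligned 60-base window without gaps that has the fewest differences shows Obox4-ps28, the single-copy Obox4-ps35 and Obox4-ps3, and 2 of the 9 genes with no reads (5 genes chosen after their values were seen), with capitals at the 31 positions that differ among them.
Obox4-ps28 (chr7:15444274-15444333, plus strand, reads in FL): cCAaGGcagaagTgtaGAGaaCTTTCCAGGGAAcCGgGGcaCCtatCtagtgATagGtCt
Obox4-ps35 (chr7:15820257-15820316, minus strand, reads in FL): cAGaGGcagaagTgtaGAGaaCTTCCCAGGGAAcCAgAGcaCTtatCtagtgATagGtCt
Obox4-ps3 (chr7:14548799-14548858, plus strand, reads in FL): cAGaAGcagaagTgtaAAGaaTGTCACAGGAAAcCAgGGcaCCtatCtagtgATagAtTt
Obox4-ps10 (chr7:15075652-15075711, minus strand, no reads): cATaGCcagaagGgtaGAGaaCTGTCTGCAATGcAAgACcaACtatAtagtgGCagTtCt
Obox4-ps34 (chr7:15719840-15719899, plus strand, no reads): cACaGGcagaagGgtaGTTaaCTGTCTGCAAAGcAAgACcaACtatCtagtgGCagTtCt

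Because copies are so alike, their values are not independent counts. Every 50-mer of Obox4-ps17 to Obox4-ps22 and Obox4-ps28 (7 genes) also occurs in another annotated gene. Obox4-ps19, Obox4-ps20 and Obox4-ps21 are 100% identical, and they had 12221, 12231 and 12233 reads in FL replicate 1. If each read had been given to 1 of the 3 copies at random, differences of about 156 reads (1 SD) would occur, but the largest was 12. In C1C3a replicate 1 all 3 had 2186 reads. The copies therefore shared reads, and a sum over them is not a number of distinct reads. At the other end, Obox3-ps7, Obox4-ps1, Obox4-ps2, Obox4-ps3 and Obox4-ps35 (5 genes) have no 50-mer in common with another gene, and 17 of the 48 share under 50% of their 50-mers.

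Library totals ran from 21059953 to 40448890 reads. The libraries fell into 2 kinds by the share of reads in 1643 genes whose sequence is held by many others. That share was 1.68% to 2.60% in 14 libraries and 0.299% to 0.430% in the other 6, which were both replicates of C3+14 and mCherry, deltC12345+14 replicate 2 and deltC12345delt14 replicate 1. Multi-copy genes are thus counted less in C3+14 and mCherry than in FL, and for them construct and kind of library cannot be told apart. All 10 embryonic stem cell markers checked, Pou5f1 and Nanog among them, had at least 10 normalised reads in both libraries of every group. Summed markers of fibroblasts, the usual feeder cells, reached at most 315 normalised reads and those of oocytes, where Obox genes are normally active, at most 183. Some markers also changed between groups. Against mCherry, limma called 6 of 10 stem cell markers lower in FL (median log2 fold change -1.80), 7 in C1C3b (-2.20), 5 in C3+14, 3 in C1C3a, 6 in C1C3c and 2 in C1+14, and none higher. In C1C3b against mCherry, 27.6% of all genes were called higher. There, 4 of 7 tested fibroblast markers were called higher and 2 lower, and 4 of 5 primitive endoderm markers were called higher. In C1C3a against FL, 11% of all genes were called higher, and so were 3 of 5 primitive endoderm markers and 3 of 10 stem cell markers. The part of these marker changes in the pseudogene values was not tested. In bulk RNA, fewer cells making a transcript and less transcript per cell cannot be told apart.

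**Figure D1:**
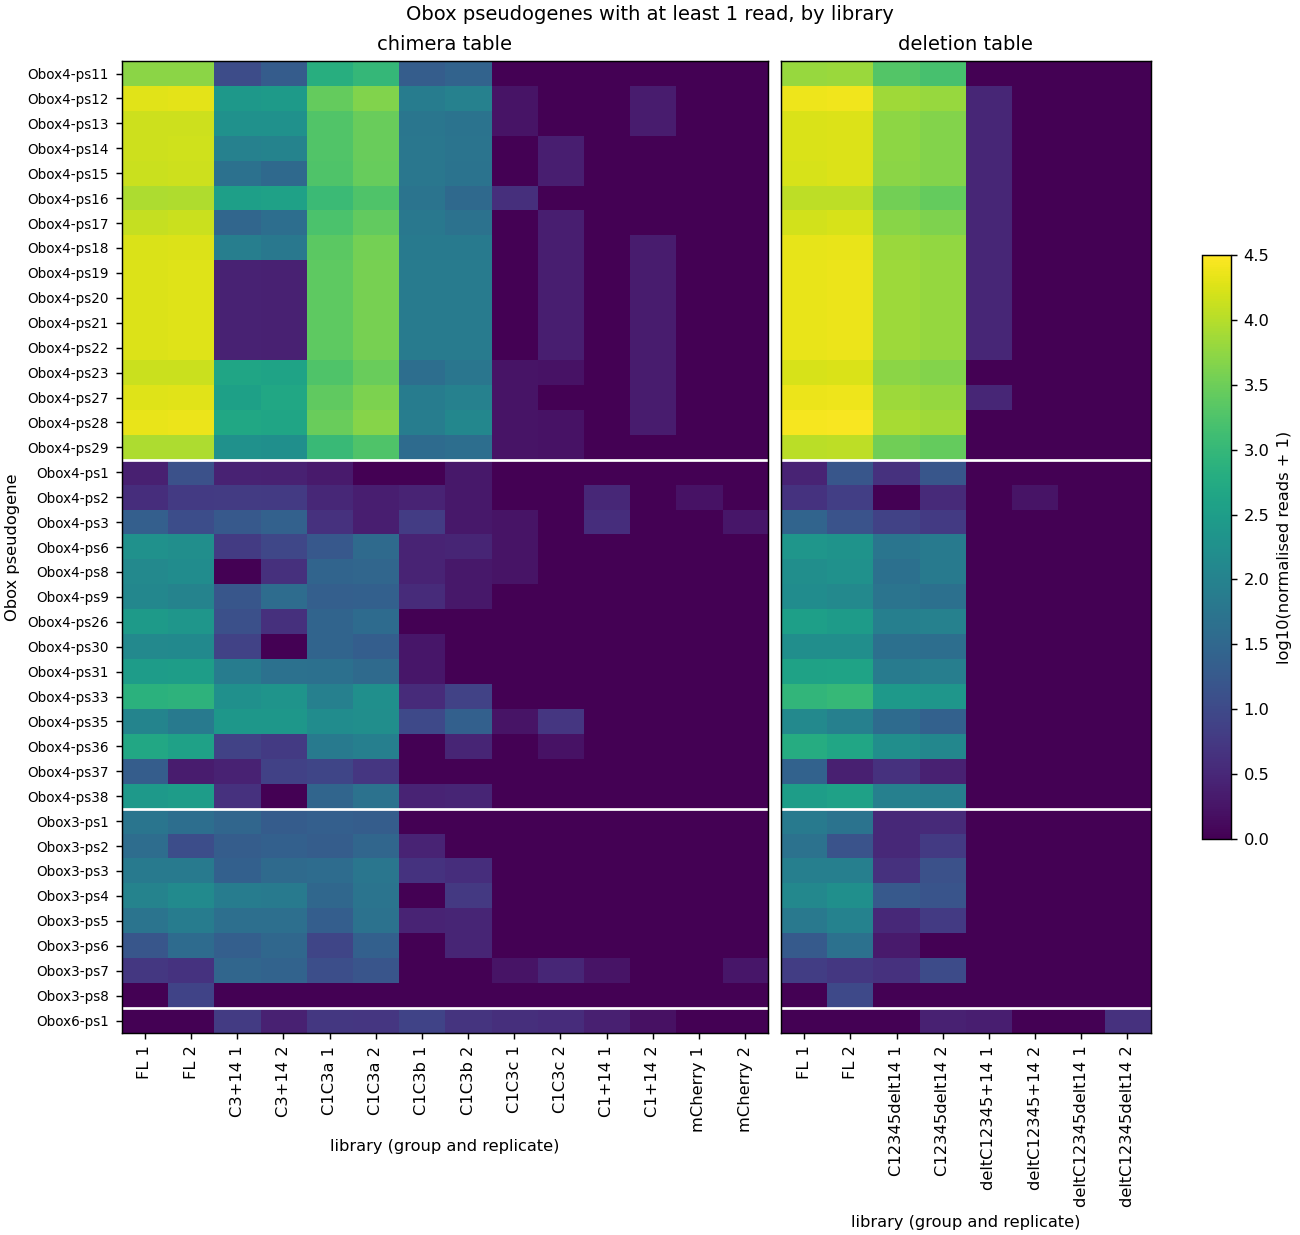
Normalised reads, as log10(value + 1), of the 39 Obox pseudogenes with at least 1 read (rows; white lines separate the 16 array copies, the other Obox4-ps, Obox3-ps and Obox6-ps1) in each library (columns) of the chimera table (left) and the deletion table (right). The array copies were the highest rows in both FL libraries, where Obox4-ps28 reached 22884 normalised reads (left panel) and 28624 (right panel). They were near 0 in C1C3c, C1+14, mCherry, deltC12345+14 and deltC12345delt14.

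Full-length DUX raised the Obox pseudogenes from next to nothing. The 48 genes summed to 245220 and 254875 normalised reads in the FL libraries and to 0.660 and 1.72 in the mCherry libraries. The 16 array copies made up nearly all of this, with a mean sum of 246927 ± 6892 in FL (SD, n = 2) and 0 in both mCherry libraries. The sums overstate the RNA, since reads shared by copies enter more than once.

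Of the 34 genes that passed the filter on low values (10 normalised reads in 2 libraries), limma called all 34 higher in FL than in mCherry and 0 lower. Over all 21584 genes tested, 24.5% were called higher. A call needs a Benjamini-Hochberg adjusted p under 0.05 and a log2 fold change of at least 1. Most of the 34 passed the filter through the groups where they are high, so the count describes them and is no measure of the family. The same limit applies to every later count of called pseudogenes. Their median log2 fold change was 9.18, against 0.09 over all genes tested. The 14 genes that were not tested were the 9 without reads and Obox3-ps8, Obox4-ps1, Obox4-ps2, Obox4-ps37 and Obox6-ps1, whose highest counts in a library of this table were 6, 10, 4, 14 and 8 reads.

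Obox4-ps28 (ENSMUSG00000093913, chromosome 7, 15442998 to 15444936, plus strand, 3 exons), the highest of the array copies, had 15198 and 19224 reads with FL, whereas neither mCherry library had any. As 0 reads allow up to 3, its mean of 22638 normalised reads in FL was at least 9944.4-fold higher. Obox4-ps35 (ENSMUSG00000092576, 15820167 to 15825815, minus strand, 2 exons), the pseudogene with no shared 50-mer and the most reads, had 71 and 60 reads with FL and none with mCherry, which makes it at least 38.7-fold higher (log2 fold change 6.45, SE 0.57, adjusted p = 6.36e-07, limma). No other gene holds its 50-mers. FL and mCherry differ in the kind of library. Between groups of 1 kind, Obox4-ps28 was at least 11170.6-fold higher in FL than in C1+14.

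Among the Obox3 pseudogenes, Obox3-ps4 (ENSMUSG00000093770, 15056199 to 15057804, minus strand) was the highest, with 69 and 117 reads with FL against none with mCherry, or at least 52.9-fold higher. Obox3-ps7, which lies on the plus strand and has no shared 50-mer, had only 3 reads in each FL library, at or under the floor, against 0 and 1 in mCherry. Its call in FL (log2 fold change 1.87, SE 0.57, adjusted p = 0.0124, limma) was lost with edgeR, with DESeq2 and without mCherry replicate 1 (adjusted p between 0.0624 and 0.127).

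Per kilobase of exon, the 16 array copies had 4847 to 11159 reads in FL replicate 1 and 6098 to 14114 in FL replicate 2. The next genes on that scale were Obox4-ps36, with 473 and 433 reads per kilobase, and Obox4-ps33, with 445 and 599. Obox4-ps35 had 104 and 88.2, and Obox3-ps4 68.7 and 116. The array copies thus stood about an order of magnitude above every other Obox pseudogene, with shared reads counted in each copy.

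**Figure D2:**
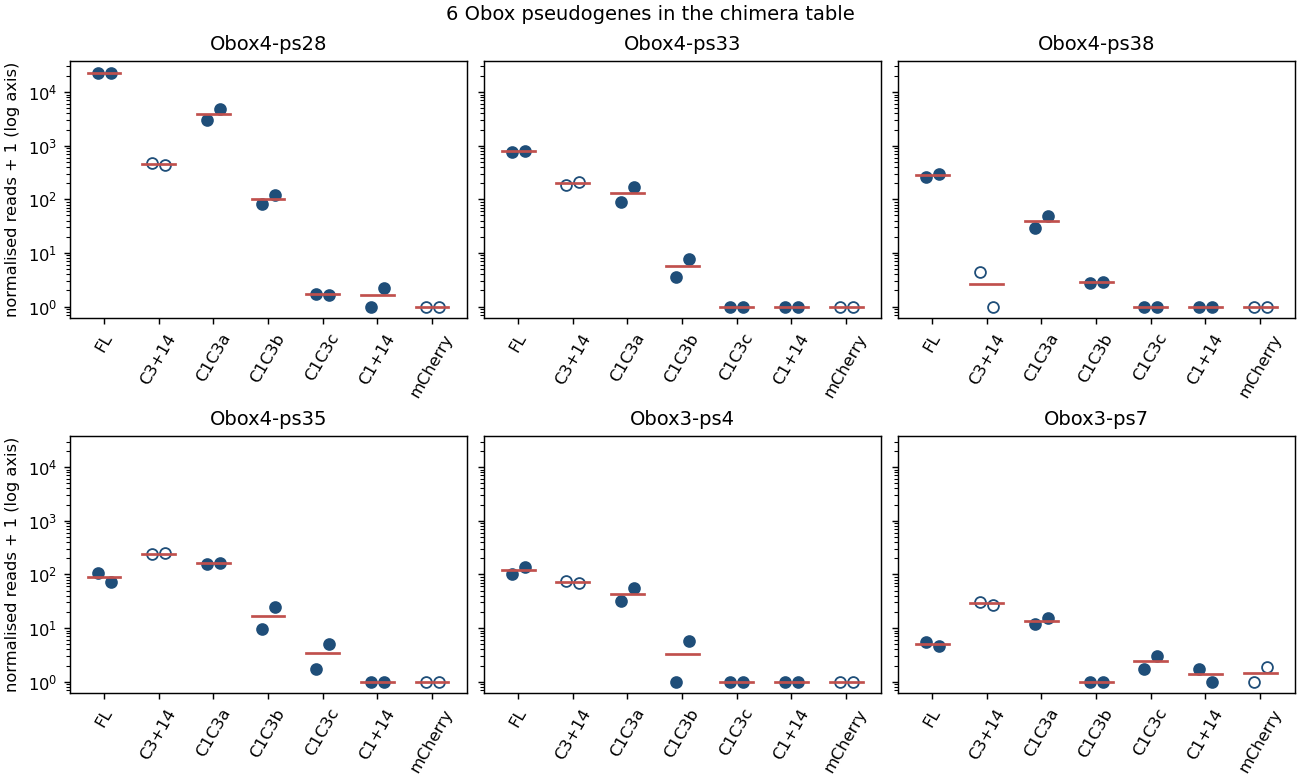
Normalised reads plus 1 (log axis) of 6 Obox pseudogenes in the 7 groups of the chimera table. Each point is a library (open points: libraries of the kind that counts multi-copy genes less) and each line the group mean; in C1+14 all 6 genes had 2 reads or fewer in each library, and Obox4-ps35 and Obox3-ps7 had higher means in C3+14 and C1C3a than in FL.

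Among the chimeras and C1+14 the sum over the family was highest in C1C3a and lowest in C1+14. The 48 genes summed to 32906 and 52172 normalised reads in C1C3a. The sums were 1030 and 1086 for C1C3b, 14.3 and 22.3 for C1C3c, and 7.31 and 13.0 for C1+14. As a percent of FL the means were 17.0 ± 5.45, 0.423 ± 0.0160, 0.00733 ± 0.00226 and 0.00407 ± 0.00162 (SD, n = 2). The sums of neighbours in this order did not overlap, although those of C1C3c and C1+14 rest on a few reads in each gene. Between C1C3c and C1+14 the sums over the array copies alone overlapped (7.54 and 12.8 against 0 and 12.4). So did those over genes with under 50% shared 50-mers (5.28 and 8.79 against 7.31 and 0.620). The order of C1C3c and C1+14 is therefore not settled.

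These 4 groups and FL have libraries of the same kind, so they can be set side by side for the array copies as well. The reads of Obox4-ps28 went from 2694 and 3460 for C1C3a to 92 and 129 for C1C3b, 1 and 1 for C1C3c, and 0 and 2 for C1+14. Those of Obox4-ps35 went from 141 and 116 for C1C3a to 10 and 25 for C1C3b, 1 and 6 for C1C3c, and 0 for C1+14. Both genes were at the floor of 3 reads in C1+14, and Obox4-ps28 was so in C1C3c too.

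Limma called 33 of the 34 tested genes higher in C1C3a than in mCherry and 22 higher in C1C3b than in mCherry, while 27.4% and 27.6% of all genes were called higher. Against FL, all 34 were called lower in C1C3b and 33 lower in C1C3c, while 19.7% and 22.8% of all genes were called lower. The gene not called in C1C3c was Obox3-ps7, which was at the floor in FL and in both of these chimeras.

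Against C1+14, limma called 33 of the 34 tested genes higher in C1C3a, where 23.4% of all genes were called higher. The exception was Obox4-ps3, with 3 and 1 reads in C1C3a and 4 and 0 in C1+14. For Obox4-ps28 the log2 fold change was 11.32 (SE 0.38, adjusted p = 3.86e-11), and it was at least 1944.2-fold higher by its mean. In C1C3b, 21 genes were called higher than in C1+14 against 17.9% of all genes. They were all 16 array copies, 2 of 7 Obox3 pseudogenes (Obox3-ps3 and Obox3-ps5) and 3 of 11 other Obox4 pseudogenes (Obox4-ps6, Obox4-ps33 and Obox4-ps35).

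Obox4-ps35 was higher in C1C3b than in C1+14 by a log2 fold change of 3.95 (SE 0.57, adjusted p = 1.31e-04, limma). Obox3-ps3 had 4 and 3 reads in C1C3b and 0 in C1+14 (log2 fold change 2.05, SE 0.49, adjusted p = 0.00426), a call lost with a pseudocount of 8 and with quantile normalization. At this depth such values lie near the limit: Obox4-ps38, with 2 reads in each C1C3b library, was not called and Obox4-ps6, also with 2 in each, was.

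In C1C3c against C1+14, limma called 0 of the 34 genes, where it called 7.83% of all genes in either direction. At an unadjusted p under 0.05 there were 2, DESeq2 called 1 and edgeR 0. Against mCherry, 1 gene, Obox4-ps35, was called in C1C3c (18.3% of all genes were called higher), and the count was 0 with a pseudocount of 8, with quantile normalization, when only the 2 groups were fitted and without either mCherry replicate. It was 4 without C1C3c replicate 1. In C1+14 against mCherry 0 genes were called by limma, edgeR and DESeq2, and 0 had an unadjusted p under 0.05, where limma called 18.3% of all genes in either direction. Without C1+14 replicate 1 the count was 2.

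The comparison of C1C3a with FL shows how near this chimera comes to the whole protein. Of 34 genes tested, limma called 26 lower in C1C3a and 0 higher, while 4.62% of all genes were called lower and 11% higher. With a pseudocount of 0.1 the count was 4. All 16 array copies and 10 of 11 other Obox4 pseudogenes were among the 26, against 0 of 7 Obox3 pseudogenes.

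The array copies fell together. Obox4-ps28 had 22392 and 22884 normalised reads in FL and 2982 and 4898 in C1C3a, 5.75-fold lower by the means (log2 fold change -2.57, SE 0.38, adjusted p = 3.95e-04, limma). Over the 16 copies the level in C1C3a was 15.9% to 17.7% of FL (median 16.8%). The copies share reads, so this narrow range does not come from 16 independent values. Obox4-ps38, which shares 40.4% of its 50-mers, went from 258 and 300 normalised reads to 28.8 and 48.1 (log2 fold change -2.87, SE 0.65, adjusted p = 0.00628).

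Obox4-ps9, with 46.9% shared, fell to 19.8% of FL (log2 fold change -2.28, SE 0.56, adjusted p = 0.00985, limma), and Obox4-ps26, the largest fall among called genes with at least 50 normalised reads in FL, to 12.5%. These levels bracket those of the near-identical array copies. The call of Obox4-ps3, with 15 and 9 reads in FL and 3 and 1 in C1C3a (adjusted p = 0.0454), was lost under 7 of the alternatives, edgeR and 3 of the 4 left-out libraries among them.

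The Obox3 pseudogenes and Obox4-ps35 were not called. Obox3-ps1 to Obox3-ps6 stood at 35.2% to 98.3% of FL in C1C3a (median 56.0%), and their adjusted p values, together with that of Obox3-ps7, were between 0.0833 and 0.854. Obox3-ps4 had 102 and 139 normalised reads in FL and 31 and 53.8 in C1C3a, without overlap, and was called lower by DESeq2, with a pseudocount of 8 and when only the 2 groups were fitted (adjusted p between 0.0044 and 0.0452), but not by the limma fit over all groups (adjusted p = 0.128). Obox4-ps35 had 105 and 71.4 normalised reads in FL and 156 and 164 in C1C3a, a mean of 182% of FL (log2 fold change 0.88, SE 0.57, adjusted p = 0.290).

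The proportions among the pseudogenes can be set out within each library. The array sum was 717 and 653 times the Obox3-ps sum in the FL libraries and 214 and 209 times in C1C3a. These are ratios within a library and do not depend on its size factor. They do not overlap between the groups, but with 2 libraries against 2 an exact two-sided permutation test cannot give a p below 0.33, so the difference was not tested.

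**Figure D3:**
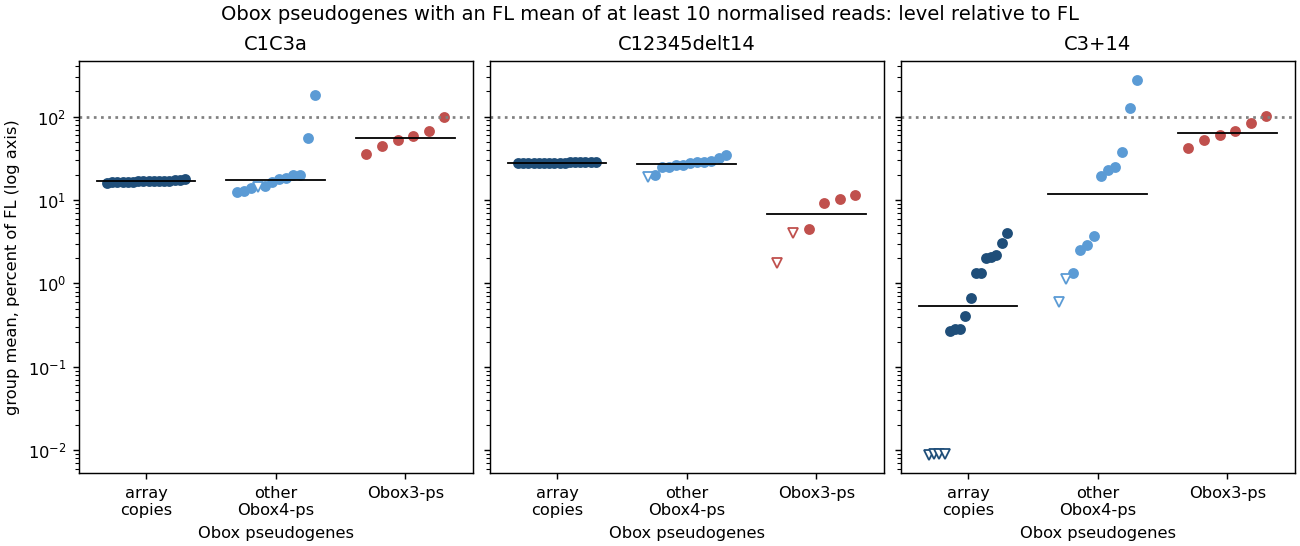
Mean level of each Obox pseudogene with an FL mean of at least 10 normalised reads, as a percent of its FL mean in the same table (log axis), in C1C3a, C12345delt14 and C3+14. Points are genes, open triangles genes with 3 reads or fewer in both libraries of the construct, black lines medians and the dotted line FL; the Obox3-ps genes lay above the array copies in C1C3a (medians 56.0% and 16.8%) and below them in C12345delt14 (6.77% and 27.9%).

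In C3+14, whose libraries are of the other kind than those of FL, most Obox4 pseudogenes were lower than in FL and 1 Obox3 pseudogene was higher. The 48 genes summed to 3359 and 3447 normalised reads, 1.36% ± 0.0247 of FL (SD, n = 2), but the 17 genes with under 50% shared 50-mers summed to 62.5% ± 1.96 of FL. Obox4-ps35 alone made up most of that sum, and without it the other 16 were at 23.8% ± 1.83 of FL in C3+14 and 22.6% ± 1.92 in C1C3a. These 16 include Obox4-ps38 and Obox4-ps9, which share 40.4% and 46.9% of their 50-mers. The 5 genes with no shared 50-mer summed to 251% ± 3.79 of FL in C3+14. Without Obox4-ps35 their sum was 178% ± 7.02 of FL, at 55.2 normalised reads in C3+14 against 30.9 in FL. The excess in this smaller sum lay in Obox3-ps7, which was at the floor in FL (reads given below). Of 34 genes tested, limma called 25 lower than in FL and 1 higher, against 9.54% and 16.8% of all genes. All 25 were Obox4 pseudogenes of sequence group 1.

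The 4 copies with 1 read in each C3+14 library, Obox4-ps19 to Obox4-ps22, are entirely repeated. Obox4-ps22 had 12288 and 15954 reads in FL, at least 3752.7-fold more in normalised reads. Obox4-ps28, its near-identical neighbour in the other array, kept 287 and 272 reads in C3+14 (log2 fold change against FL -5.62, SE 0.38, adjusted p = 2.41e-07, limma). In FL the reads of Obox4-ps28 were 15198 and 19224, so the copies that were close to each other in FL were far apart in C3+14.

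The genes with no shared 50-mer were mixed. Obox4-ps1 had 1 and 10 reads in FL and 1 in each C3+14 library and was not tested. Obox4-ps35 had 241 and 245 normalised reads in C3+14 against 105 and 71.4 in FL, 2.76-fold higher without overlap. Its adjusted p was 0.0544 with limma (log2 fold change 1.48, SE 0.57), 0.0126 with edgeR and 0.00366 with DESeq2. Obox3-ps7 was called higher, with 18 and 16 reads in C3+14 and 3 in each FL library (log2 fold change 2.54, SE 0.57, adjusted p = 0.00340), a call lost with a pseudocount of 0.1.

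Values for the remaining genes also went both ways. Obox4-ps3 had 16.8 and 24.3 normalised reads against 22.1 and 10.7 in FL (adjusted p = 0.743, limma). Obox4-ps38 was 2 and 0 reads against 175 and 252 in FL, at least 56.4-fold lower although 40.4% of its 50-mers are shared, and Obox4-ps9 was at 23.2% of FL. The 6 Obox3 pseudogenes from Obox3-ps1 to Obox3-ps6 stood at 42.4% to 102% of FL, and none of them was called.

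Across the 34 genes with an FL mean of at least 10 normalised reads, the level in C3+14 relative to FL went down with the share of repeated 50-mers (Spearman's rho -0.70). Single genes departed from this order. Obox3-ps2 to Obox3-ps6 share 66.5% to 93.0% of their 50-mers and stood at 42.4% to 102% of FL. Obox4-ps38 shares 40.4% and was at 0.601%. The same rho was -0.17 for C1C3a and 0.24 for C12345delt14, whose libraries are of the same kind as FL. The points share libraries and copies share reads, so these are descriptions without a p. The part of the counting of repeated sequence in the C3+14 values of the array was not tested.

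**Figure D4:**
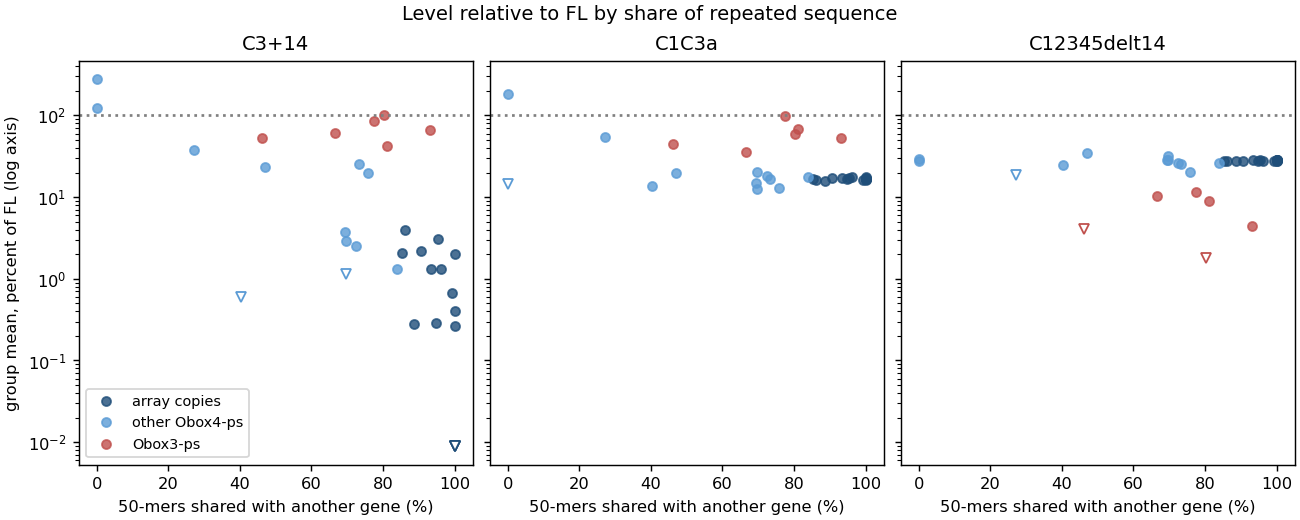
Percent of FL (log axis) against the percent of a gene's 50-mers that occur in another annotated gene, for C3+14, C1C3a and C12345delt14. Points are the 34 Obox pseudogenes with an FL mean of at least 10 normalised reads, and open triangles have 3 reads or fewer in both libraries of the construct. In C3+14 the 4 lowest genes, Obox4-ps19 to Obox4-ps22 at 0.00888% to 0.00893% of FL, are fully repeated. Obox4-ps28, also fully repeated, was at 2.04%, and Obox3-ps5, at 93.0% shared, was at 66.9%. In C1C3a and C12345delt14 the array copies formed a flat band.

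C3+14 and mCherry have libraries of the same kind, so the step from the tag to this construct can be read within it. Against mCherry, 31 of 34 genes were called higher in C3+14 and 0 lower, where 29.6% of all genes were called higher. The exceptions were Obox4-ps8, Obox4-ps30 and Obox4-ps38, all with 5 reads or fewer in each C3+14 library. Such low counts were not confined to them. Obox4-ps19 to Obox4-ps22, copies that share reads, were called with 1 read in each C3+14 library and 0 in mCherry. Both groups were at the floor there. Obox4-ps35 was at least 106.7-fold higher and Obox4-ps28 at least 202.4-fold higher than in mCherry. Obox3-ps4 had 45 and 43 reads in C3+14 (log2 fold change 6.20, SE 0.69, adjusted p = 5.06e-06, limma).

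The deletion table asks which parts of DUX raise the pseudogenes. In the constructs that lack C12345 they stayed near 0. The 48 genes summed to 301600 and 318812 normalised reads in FL, 26.7 and 0.718 in deltC12345+14, and 0 and 3.31 in deltC12345delt14. All 34 genes tested were called lower than in FL in each of the 2 constructs, against 20% and 20.3% of all genes called lower. The 34 genes passed the filter in this table only through FL or C12345delt14, so these counts describe them and are no measure of the family. The 26.7 come from deltC12345+14 replicate 1, which is of the kind that counts multi-copy genes more, where 12 array copies had 3 reads each. Obox4-ps28 had 0 reads in all 4 of these libraries, at least 13188.2-fold lower than FL in deltC12345+14 and at least 11349.3-fold lower in deltC12345delt14.

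Between deltC12345+14 and deltC12345delt14, limma, edgeR and DESeq2 called 0 of the 34 genes, 0 had an unadjusted p under 0.05, and limma called 0% of all 19833 genes. In both groups the replicates are of different kinds, with 2.32% and 0.401% (deltC12345+14) and 0.430% and 2.60% (deltC12345delt14) of reads in multi-copy genes. The fit has no term for kind, so for such genes the difference of kind is part of the spread. C12345delt14, which keeps C12345 and lacks the part named 14, was called higher than deltC12345delt14 at 32 of 34 genes (12.6% of all genes were called higher). The exceptions were Obox3-ps2 and Obox3-ps6. Obox4-ps28 was at least 3137.8-fold higher, and Obox3-ps5, with 2 and 6 reads in C12345delt14 and 0 in deltC12345delt14, was called (log2 fold change 2.14, SE 0.58, adjusted p = 0.0273, limma). The smallest called difference was that of Obox3-ps1, with 2 and 3 reads in C12345delt14 (log2 fold change 1.75, SE 0.54, adjusted p = 0.0407), where both groups are at the floor.

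C12345delt14 had lower values than FL at both the array copies and Obox3-ps1 to Obox3-ps6, with the lower percent of FL at these Obox3 copies. The 48 genes summed to 92560 and 80713 normalised reads in C12345delt14, 27.9% ± 2.70 of FL (SD, n = 2). Limma called 7 of 34 genes lower and 0 higher, against 0.62% of all genes called lower and 0.338% higher. They were Obox3-ps1, Obox3-ps4, Obox3-ps5 and Obox3-ps6, and the array copies Obox4-ps23, Obox4-ps28 and Obox4-ps29. The count rested on the method, at 0 with a pseudocount of 0.1, 23 with edgeR, 28 with DESeq2 and 0 to 4 with any 1 library left out.

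All 16 array copies had nearly the same level, 27.5% to 28.4% of FL (median 27.9%), whether called or not. Obox4-ps28 had 27540 and 28624 normalised reads in FL and 8213 and 7315 in C12345delt14 (log2 fold change -1.86, SE 0.25, adjusted p = 0.0369, limma). Obox4-ps22 had 22267 and 23755 in FL and 6948 and 6086 in C12345delt14 (log2 fold change -1.82, SE 0.48), and its adjusted p was 0.0875. The spread is estimated over all groups of the table, and in deltC12345+14 Obox4-ps22 had 3 and 0 reads. The array copies that were called had no reads there, and neither had Obox4-ps11, which was not called. The part of such reads in the SEs was not tested. Obox4-ps35 was at 27.7% of FL, close to the array, with an adjusted p of 0.10.

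Obox3-ps1 to Obox3-ps6 were lower still, at 1.78% to 11.6% of FL (median 6.77%). The lowest were Obox3-ps6, with 1 and 0 reads in C12345delt14, and Obox3-ps1, with 2 and 3, both at the floor. Obox3-ps7 and Obox3-ps8 were not tested. Obox3-ps7 had 3 and 12 reads in C12345delt14 against 3 in each FL library, and Obox3-ps8 had 0 against 0 and 6. Obox3-ps5 had 65.2 and 96.8 normalised reads in FL and 2.29 and 4.92 in C12345delt14 (log2 fold change -4.19, SE 0.58, adjusted p = 0.0376, limma). Obox3-ps4 had 125 and 174 in FL and 17.1 and 13.9 in C12345delt14 (log2 fold change -3.17, SE 0.52, adjusted p = 0.0452). Obox3-ps3 had 85.2 and 87.9 in FL and 3.43 and 12.3 in C12345delt14, and with an adjusted p of 0.0553 it was not called.

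The ratio of the array sum to the Obox3-ps sum was 2862 and 1649 in C12345delt14, above both FL libraries, whereas in C1C3a it was below both. The ratio of Obox4-ps33, a copy outside the arrays, to Obox4-ps35 was 7.03 and 9.66 in C12345delt14 against 7.14 and 11.4 in FL, and 0.567 and 1.03 in C1C3a. The C12345delt14 and FL values of this ratio overlapped, and those of C1C3a lay below both. These ratios were not tested, for the reason given above.

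Obox6-ps1, the processed pseudogene on chromosome 17 (ENSMUSG00000093761, 61360573 to 61361614, plus strand), differed from the rest. It had 0 reads in both FL libraries and both mCherry libraries, 8 and 4 in C1C3b, 4 and 3 in C1C3a, 4 and 4 with C1C3c, 2 and 1 with C1+14, and 3 and 1 with C3+14. In the deletion table it had 0 and 2 in C12345delt14, 2 and 0 in deltC12345+14, and 0 and 4 in deltC12345delt14. These counts are too low for the test. Obox6, the coding gene with which it shares most 50-mers, was itself present in mCherry at 17.5 ± 0.465 normalised reads and rose to 124 ± 18.7 in FL and 315 ± 65.1 in C1C3a (SD, n = 2), and 6.55% of the 50-mers of Obox6-ps1 are shared with other genes.

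The protein-coding Obox genes (Obox1, Obox2, Obox3, Obox5, Obox6, Obox7 and Obox8) are the nearest relatives. Of the 6 that were tested, 6 were called higher than mCherry in each of FL, C3+14 and C1C3a. With C1C3b the count was 2, and with C1C3c and C1+14 it was 1. In C1C3a against FL, 0 of 6 were called lower and 1 (Obox6) higher, where 4.62% of all genes were called lower and 11% higher. Of the pseudogenes, 26 of 34 were lower there, 16 of them array copies that share reads. Obox3 was at 290 ± 118 normalised reads in FL and 162 ± 71.9 in C1C3a (adjusted p = 0.244, limma), so its level, like those of its copies, was not called. In C12345delt14 against FL, Obox3 and Obox5 were called lower, Obox3 from 361 ± 151 to 34.8 ± 8.78.

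As a group the coding genes summed to 107% ± 38.4 of FL in C1C3a and 31.6% ± 1.53 in C12345delt14 (SD, n = 2), where the pseudogenes summed to 17.0% and 27.9%. Obox6, which was present in mCherry, weighs on both sums. In C12345delt14 it had 173 of 259 normalised reads, against 154 of 821 in FL. Obox1, Obox2, Obox3, Obox5 and Obox7 were each lower in C12345delt14 than in FL, by 4.44-fold (Obox2) to 14.2-fold (Obox5). In C1C3a against FL, Obox6 was the 1 coding gene called higher. Of 21 known 2-cell genes, such as the Zscan4 and Usp17l families, 21 were called higher than mCherry in FL, C3+14 and C1C3a. The count was 20 with C1C3b, 15 with C1C3c and 7 with C1+14. In C1C3a against FL, 4.62% of all genes were called lower and 11% higher. Of the pseudogenes, 26 of 34 were called lower, 16 of them array copies that share reads. Of the 21 known 2-cell genes, 4 were called higher and 8 lower (median log2 fold change -0.11). Zfp352, a zinc finger gene of the 2-cell embryo, was 1 of the 4 (26194 ± 4618 against 6209 ± 2227 normalised reads, adjusted p = 0.00210, limma).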

How the data were processed

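Poly(A) RNA was sequenced with a stranded Illumina kit from 500 ng of total RNA, per the labels' protocols. The submitters' processing notes name Trim Galore 0.5.0, FastQC, DESeq2 and the mm10 build, without their order. The aligner, the counting program and the handling of multi-mapping reads are not given in the sources used here. The deposited values are a signal, each gene's read count over the size factor of its library: 100% of 1220714 values were whole multiples of a step (tolerance 0.01 of a step), and the steps equal median-of-ratios size factors, so whole reads were recovered.

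Symbols, coordinates and transcripts are from GENCODE M21 (GRCm38), and 55141 of 55487 identifiers had a symbol. The pseudogenes and all lists were chosen with earlier results of these data known. The main test was limma 3.58.1 (R 4.3.3; lmFit, eBayes with trend) on log2(value + 1) over every gene that reached 10 in 2 libraries or more. All groups of a table shared 1 spread, with Benjamini-Hochberg adjustment over all genes tested. Fold changes on this scale understate low genes. Groups were compared only within a table. Alternatives were other pseudocounts, no filter, quantile normalization, a replicate block, the 2 groups alone, edgeR 4.0.16 and DESeq2 1.42.0 on the recovered reads, and leaving out each library. On simulated counts for C1C3a against FL, 97% of genes changed 4-fold were recovered, with 14 of 20443 genes tested called though unchanged. For C12345delt14 against FL, 80% of genes changed 4-fold were recovered, with 13 of 19535 genes tested called though unchanged.

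A group was at the floor where neither library had more than 3 reads, and a fold against it is a lower bound, with 3 reads per library averaged over the group. Floors cover counting error only, since PCR copies were not marked. Replicate libraries differed by more than counting noise (chi-square per gene of 3.31 to 78.9). Identities came from mafft 7.526 and blastn 2.17.0, and shared 50-mers from the transcripts. Genes named with values are the 6 highest, the 2 highest of each numbered family, those with under 50% shared 50-mers that were tested, and the largest called rise and fall of each comparison (at least 50 on average in the higher group). Other pseudogenes named, such as Obox4-ps33 and Obox4-ps36, were chosen after their values were seen.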

Additional observations from a re-analysis of the deposited data

How the results depend on the processing

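Of the counts and sums, 244 alternative values stayed within 1.5 times or 1 SD and those given here did not. Among single pseudogenes named, 544 alternative values kept their direction and call, 68 lost the call and 18 gained it. For C12345delt14 against FL, 7 genes were called in the main analysis, 31 with a pseudocount of 8 or with only the 2 groups fitted, 28 with DESeq2, 23 with edgeR, and 0 with a pseudocount of 0.1, with no filter or with the replicate block; leaving out 1 library gave 0 to 4. For C1C3a against FL, 26 became 4 with a pseudocount of 0.1. For C1C3c against mCherry, 1 became 4 with a pseudocount of 0.1, 0 with a pseudocount of 8, quantile normalization or 2 groups, and 0 to 4 with a library left out; against C1+14, 0 became 2 with a pseudocount of 0.1, 1 with DESeq2, and 0 to 2 with a library left out. C1+14 against mCherry gave 0 to 2 with a library left out. With 1 library left out, the log2 fold change of Obox4-ps3 in C3+14 against FL ran from -0.12 (without FL replicate 2) to 0.86, and that of Obox4-ps1 in C12345delt14 against FL from -0.93 (without FL replicate 1) to 1.24; neither was called. Quantile normalization moved the median of all genes in FL against mCherry from 0.09 to -0.27 (log2). The cause of these shifts was not tested.

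Summed levels, in percent of FL, also moved with the scaling or the genes summed. Scaled to library totals they were 1.60 (C3+14), 0.803 (C1C3b), 0.017 (C1C3c), 0.00958 (C1+14), 9.63e-04 (mCherry) and 39.7 (C12345delt14). Over genes with under 50% shared 50-mers, chosen after seeing the data, they were 62.5 (C3+14), 47.1 (C1C3a), 5.24 (C1C3b), 1.23 (C1C3c), 0.692 (C1+14), 0.207 (mCherry), 0.149 (deltC12345+14) and 0.233 (deltC12345delt14); without Obox4-ps35 these were 23.8, 22.6, 2.87, 0.955, 0.818, 0.245, 0.176 and 0.276 in the same order. Over the highest gene alone, also added later, they were 2.04 (C3+14), 0.446 (C1C3b), 0.00316 (C1C3c) and 0 (mCherry), and without it 1.29 (C3+14). Leaving out a library gave 0.00292 to 0.00521 (C1+14), 26 to 29.8 (C12345delt14), 13.2 to 20.9 (C1C3a), 0.00573 to 0.00892 (C1C3c), 1.34 to 1.39 (C3+14), 2.32e-04 to 0.00859 (deltC12345+14), 0 to 0.00107 (deltC12345delt14) and 2.64e-04 to 6.86e-04 (mCherry). Replicate numbers did not pair the libraries (correlations of deviations from -0.10 to 0.05 in the chimera table and -0.57 to 0.14 in the deletion table), so the replicate block is only an alternative. Depth limits genes under about 10 reads, which includes most Obox3 pseudogenes in C1C3b.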
